A study of Mus musculus with 2 samples.

Results

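The contactins are a family of 6 genes, Cntn1 to Cntn6, chosen by gene name out of 21770 protein-coding genes on chromosomes 1 to 19, X and Y. Each gene was taken with its RefSeq gene body and 2 kb on either side, called its window here, and the 6 windows added up to 3.41 Mb. The data were lists of H3K9me2 peaks from 2 CUT&Tag libraries of activated B cells of C57BL/6 mice. The KO library came from mice labelled jmjd1c B KO and the WT library from wild-type mice. H3K9me2 is histone H3 dimethylated at lysine 9, a mark of repressed chromatin, and in CUT&Tag an antibody brings a transposase that cuts and tags the marked chromatin. The product of Jmjd1c is one of the jumonji proteins, which include demethylases of H3K9, and the study compared the mark between the genotypes. The driver of the B cell deletion, the activating stimulus, the age of the mice and the number pooled were not given in the sources used here. The KO list rested on 34502392 tags and the WT list on 33474010. With 1 library per genotype there was no replicate check and no test of any difference, and all intervals below are 95% intervals that cover counting error only. In such bulk libraries, fewer marked cells and less mark per cell cannot be told apart. Peak lists do not measure expression, so the cell type could be looked at only as loci. None of 9 B cell marker genes held a peak in either library, and 2 of 6 T cell and 1 of 4 myeloid markers held one, led by the T cell gene Themis with 23 KO and 22 WT peaks. Of all protein-coding windows, 88.2% held no peak in either list, so these counts say little about the cell type.

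Contactins are cell adhesion proteins of neurons, built of immunoglobulin and fibronectin type III domains and held on the membrane by a lipid anchor. They pair with contactin-associated proteins, with receptor tyrosine phosphatases and with L1-type adhesion molecules to organise myelinated axons, axon guidance and synapses. B cells are not known for using them. Cntn1 and Cntn2 act where axons meet myelinating glia, Cntn3 to Cntn6 bind the receptor phosphatase Ptprg, and Cntn4 is also a partner of the amyloid precursor protein App in axon targeting.

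The 6 windows together held 44 KO peaks (32.0 to 59.1, exact Poisson interval) and 47 WT peaks (34.5 to 62.5). The KO to WT ratio was 0.936 (0.606 to 1.44, exact binomial-based interval), against 1.02 over all protein-coding windows, which lies inside that interval. The peaks were divided very unequally among the paralogues. Cntn5 held 22 KO and 18 WT peaks and Cntn4 held 16 KO and 22 WT peaks, whereas Cntn3 held 3 KO and 7 WT peaks. Cntn1 held 2 KO peaks and Cntn6 held 1 KO peak, both with no WT peak, and Cntn2 held none in either list. A KO peak was thus present in 5 of the 6 genes and a WT peak in 3 of them, against 9.89% and 9.68% of all protein-coding windows. Most contactin windows are long, and long windows more often held a peak. Among the 584 protein-coding windows at least as long as that of Cntn1, which is 295 kb, 73.8% held a KO peak and 73.6% a WT peak. That limit was the shortest contactin window with a peak, so every contactin that reaches it holds a peak by the choice of limit. Of the 5 contactins of that length, all 5 held a KO peak and 3 a WT peak. For that reason, and with so few genes, these counts cannot be set against those shares.

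**Figure D1:**
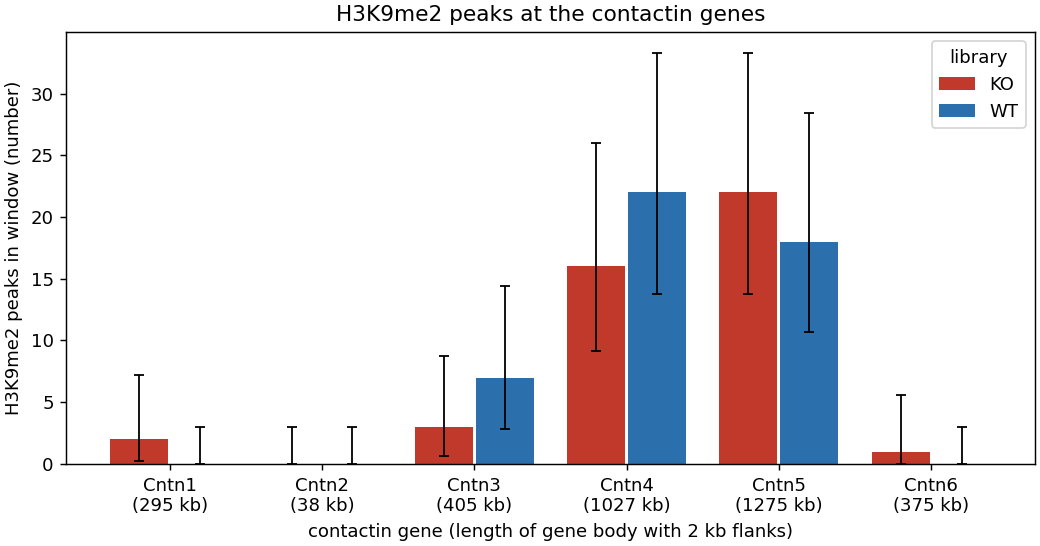
Number of H3K9me2 peaks in the window of each contactin gene, KO left and WT right, with exact 95% Poisson intervals as error bars, or the 3 peaks that a count of 0 allows, and window lengths under the names. Cntn4 and Cntn5 carried 78 of the 91 peaks of both lists, and Cntn2 carried none.

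Per length, the order of the paralogues could be resolved only in part. In peaks per Mb of window, Cntn5 had 17.3 in KO (10.8 to 26.1) and 14.1 in WT (8.37 to 22.3). Cntn4 had 15.6 per Mb in KO (8.91 to 25.3) and 21.4 in WT (13.4 to 32.4), and Cntn3 had 7.40 in KO (1.53 to 21.6) and 17.3 in WT (6.94 to 35.6). These intervals all overlap, so the order of Cntn3, Cntn4 and Cntn5 could not be resolved in either library. Cntn1 had 6.78 per Mb in KO (0.822 to 24.5), and its 0 WT peaks allow up to 10.2 per Mb (3 counts). Cntn6 had 2.67 per Mb in KO (0.0676 to 14.9), and its 0 WT peaks allow up to 8.01 per Mb. The exact Poisson interval used for the other counts would allow more, 12.5 per Mb at Cntn1 and 9.84 at Cntn6. For both genes the KO density lies below what the WT count of 0 allows, so the absence of WT peaks is no detectable difference. Cntn2 is only 33.8 kb long, and 0 peaks there allow up to 79.3 per Mb. Over the long protein-coding windows the median was 11.6 per Mb in both KO and WT, and pooled they held 17.6 per Mb in KO and 17.1 in WT. Cntn5 stood at rank 233 of the 584 in KO and 258 in WT, and Cntn4 at 247 and 187. By these values alone, both genes lay above the median of long windows and below their upper quartile, which was 27.7 per Mb in KO and 26.0 in WT. Their intervals do not settle this placement. Those of Cntn5 in both libraries and of Cntn4 in KO include the median, and that of Cntn4 in WT includes the upper quartile.

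**Figure D2:**
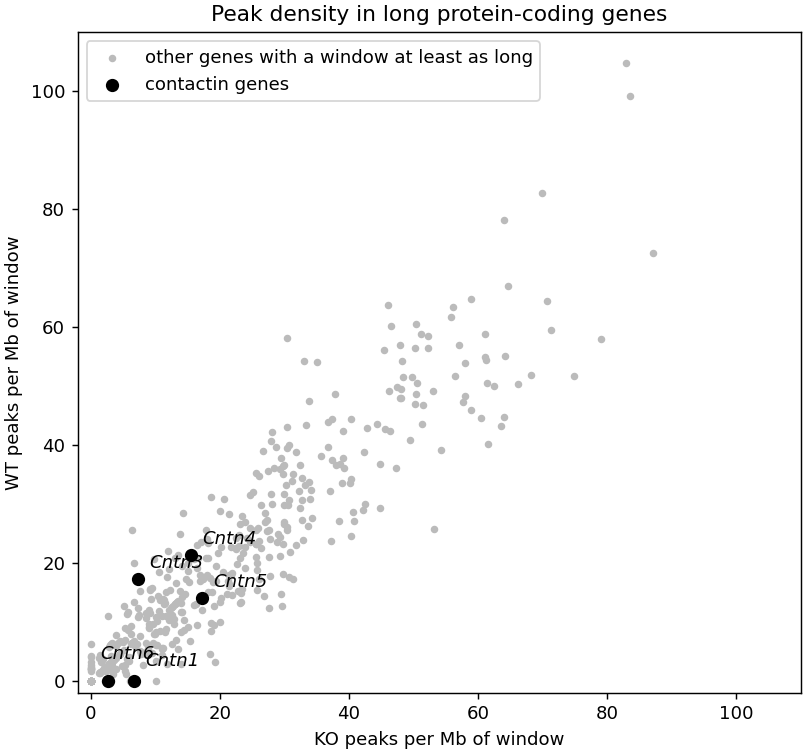
Peaks per Mb of window in KO (x axis) and WT (y axis) for the 584 protein-coding genes with a window at least as long as that of Cntn1. Each point is a gene, and the 5 contactins of that length (black) lie at 2.67 to 17.3 per Mb in KO and 0 to 21.4 in WT.

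The difference between the genotypes within single genes stayed inside counting error. Cntn3 had a KO to WT ratio of 0.429 (0.0715 to 1.88), Cntn4 of 0.727 (0.357 to 1.45) and Cntn5 of 1.22 (0.626 to 2.42). Of these 3, Cntn3 passed a 1.5-fold difference toward WT, as did 10.9% of the 543 protein-coding windows with 10 or more peaks in both lists together. None of the 3 passed it toward KO, which 12.9% of those windows did. Cntn1 and Cntn6 were among the long windows with KO peaks only, which made up 2.05% of 584, and 71.7% had peaks in both lists. The length limit was set by Cntn1 itself, so these 2 calls cannot be set against that share. Of the 584 windows, 431 held a KO peak and 430 a WT peak. The KO-only calls rest on 3 peaks. At Cntn1 they had pileups, the caller's depth of extended tags, of 15.3 and 14.0 and a −log10 q of 2.85 and 2.34, and at Cntn6 the peak had a pileup of 14.7 and a −log10 q of 3.04. Their fold enrichments were 3.26 and 3.07 at Cntn1 and 3.44 at Cntn6, against a KO list median of 3.08, and all 3 pileups were below the KO list median of 19.1. The median −log10 q of the KO list was 3.01, and the list ends at 2 by the authors' cutoff, a q of 0.01.

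Peaks covered little of any contactin. The covered share of the window was 0.702% in KO and 1.19% in WT at Cntn4, 0.705% and 0.753% at Cntn5, and 0.342% and 0.885% at Cntn3. The caller's fragment length was 189 bp in KO and 292 bp in WT and sets the smallest peak, so covered lengths are tilted toward WT. With KO peaks widened by the difference of 103 bp, the covered share over all 6 windows was 0.686% in KO against 0.742% in WT.

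In 3 of the genes a peak lay at the outermost start of the gene body. The strand came from RefSeq promoter entries, and distances are from the first base of the outermost RefSeq transcript. At Cntn4, a peak of both libraries lay across that start, on chromosome 6 (mm10) from 105676869 to 105678098 in KO and from 105676885 to 105677839 in WT, with pileups of 23.1 and 26.6. It also overlapped the end of the noncoding RNA gene Gm15631. At Cntn3, which runs on the minus strand, the KO peak from 102564310 to 102564702 spanned the start, and the WT peak from 102564222 to 102564516 ended 98 bp inside the gene, with pileups of 21.1 and 23.6. Cntn1 had a KO peak from 92051397 to 92051585 on chromosome 15, 245 bp inside the gene, and its nearest WT peak was 57.7 kb away. The nearest peak to the start of Cntn5 was 29.5 kb away in both KO and WT, upstream of the gene, and that of Cntn6 was 291 kb away in KO and 300.2 kb in WT. So 3 of the 6 genes had a KO peak within 1 kb of the outermost start and 2 had a WT peak, against 2.83% and 2.73% of the 17491 protein-coding genes with a strand. Both libraries had one at Cntn3 and Cntn4, against 1.72% of those genes and 14.2% of the 444 long ones among them. Such peaks are thus more frequent at long genes in general, and 2 of 5 long contactins is too few to set apart from that share.

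Promoter sequence was at hand for 10 RefSeq starts of the 6 genes, and none of the 250 bases before any of them overlapped a peak in either library. The share of all promoter entries that overlap a peak was not computed. Within 1 kb of the outermost start, only 2.83% of protein-coding genes with a strand had a KO peak and 2.73% a WT peak. The absence of peaks before the listed starts thus says little about the contactins. The listed starts of Cntn3 and Cntn4 lie inside the gene bodies, 60.0 kb and 17.1 kb or more from the nearest KO peak, and not at the marked outermost starts. Of the sequences shown, that of Cntn1 is the one nearest to a peak, that of Cntn5 is at the start of the gene with the most KO peaks, and that of Cntn3 has the fewest CG pairs of the 10. They are from RefSeq (GRCm38.p6, the assembly behind mm10), 5′ to 3′ along the gene, with each CG in capitals. They span chr15:92050915-92051164 on the plus strand, chr9:10904776-10905025 on the minus strand and chr6:102464668-102464917 on the minus strand.
Cntn1: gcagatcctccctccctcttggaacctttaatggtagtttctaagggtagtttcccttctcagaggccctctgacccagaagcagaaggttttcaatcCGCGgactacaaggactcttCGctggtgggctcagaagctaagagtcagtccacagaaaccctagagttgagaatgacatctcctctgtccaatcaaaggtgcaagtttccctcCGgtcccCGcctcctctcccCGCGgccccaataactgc
Cntn5: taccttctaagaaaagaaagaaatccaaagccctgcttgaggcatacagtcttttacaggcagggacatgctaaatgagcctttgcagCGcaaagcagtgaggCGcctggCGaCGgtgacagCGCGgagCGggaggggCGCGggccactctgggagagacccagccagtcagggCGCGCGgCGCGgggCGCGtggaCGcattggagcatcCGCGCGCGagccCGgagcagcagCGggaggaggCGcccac
Cntn3: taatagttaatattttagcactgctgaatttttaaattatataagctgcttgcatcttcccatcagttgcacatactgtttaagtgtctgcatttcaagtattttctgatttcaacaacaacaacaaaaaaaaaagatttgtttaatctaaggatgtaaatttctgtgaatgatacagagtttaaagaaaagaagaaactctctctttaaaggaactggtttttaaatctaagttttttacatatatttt
CG, which reads the same on both strands, was counted with neighbouring pairs such as CGCG as 2. It occurred 7 times before Cntn1, 24 times before Cntn5 and 0 times before Cntn3. Over all 32851 promoter entries the median was 6, and 11.98% had 24 or more, while 7.87% had none. The sequence before the listed Cntn6 start held 3, that before Cntn2 held 10, and the closely spaced Cntn4 starts held 2 and 12.

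Along Cntn4, which lies on the plus strand of chromosome 6 from 105677632 to 106700141, peaks were present from the outermost start to 917 kb along it. In 3 equal parts of the gene from its start there were 3, 6 and 7 KO peaks and 5, 7 and 10 WT peaks, counts too low to set the parts apart. The median peak lay at 0.541 of the gene length from the outermost start in KO and at 0.656 in WT. Between 700 and 800 kb from the start there were 3 KO and 6 WT peaks, and between 600 and 700 kb there were 0 KO and 4 WT peaks, the widest difference of any 100 kb step of the gene. The first 200 kb held 1 KO and 3 WT peaks. The longest stretch with no peak in either list ran from 105727644 to 105872383, 145 kb. The highest peak of any contactin was in this gene, 877 kb from the start. It spanned 1622 bp in KO, from 106553671 to 106555292, with a pileup of 48.1, and 1568 bp in WT, from 106553757 to 106555324, with a pileup of 73.7. Its −log10 q was 10.3 in KO and 17.0 in WT, and 1536 bp were common to both. Pileups depend on the fragment length and are not scaled between libraries, so the levels of KO and WT are not compared. The peaks with the highest fold enrichment over local background, the authors' values, were others. They were at 105959962 to 105960239 in KO (4.43-fold) and at 106163203 to 106163648 in WT (3.74-fold), and neither had a partner in the other library.

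Cntn5, on the minus strand of chromosome 9 from 9634223 to 10904775, is the longest contactin and had its peaks spread along the whole gene. The median peak lay at 0.489 of the gene length in KO and at 0.396 in WT, and the longest peak-free stretch was 105 kb. Neighbouring peaks of a list were a median of 44.1 kb apart in KO and 68.6 kb in WT. Its strongest peaks by fold enrichment lay at 9902121 to 9902319 in KO (4.37-fold) and at 10710399 to 10710734 in WT (3.96-fold), each in 1 library only. Pileups had a median of 15.7 in KO, with a −log10 q of 2.37 to 5.40, and a median of 20.4 in WT, with a −log10 q of 2.54 to 6.09. The widest peaks were shared ones, 912 bp in KO from 10666276 to 10667187 and 1385 bp in WT from 10436926 to 10438310. The surroundings of Cntn5 were denser than the gene, since the 1 Mb on each side of the window held 37.0 peaks per Mb in both KO and WT. At Cntn4 it was the other way round, with 6.00 per Mb around the window in KO and 4.50 in WT, and around Cntn6 there were 10.5 and 7.50 per Mb.

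Cntn3, on the minus strand of chromosome 6 from 102163304 to 102564614, had 3 KO peaks, at 0.108, 160 and 377 kb from the start. The first 2 of these were overlapped by WT peaks. The remaining 5 WT peaks had no partner, and the one from 102361285 to 102361681 also lay in the noncoding RNA gene Gm38870. A stretch of 143 kb was free of peaks in both lists. Cntn6, on the plus strand from 104492662 to 104863406, had its single KO peak from 104783564 to 104784283, after 293 kb of window with none. The 2 KO peaks of Cntn1 were 177 kb apart. Cntn2, on chromosome 1 from 132509425 to 132543251, lay in a large region without calls. No peak of either list was found from 2297 kb below the gene to 1051 kb above it, a stretch of 3.38 Mb that held 52 protein-coding genes. That stretch also contains Nfasc, the neurofascin gene, whose product works with Cntn1 at myelinated axons.

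**Figure D3:**
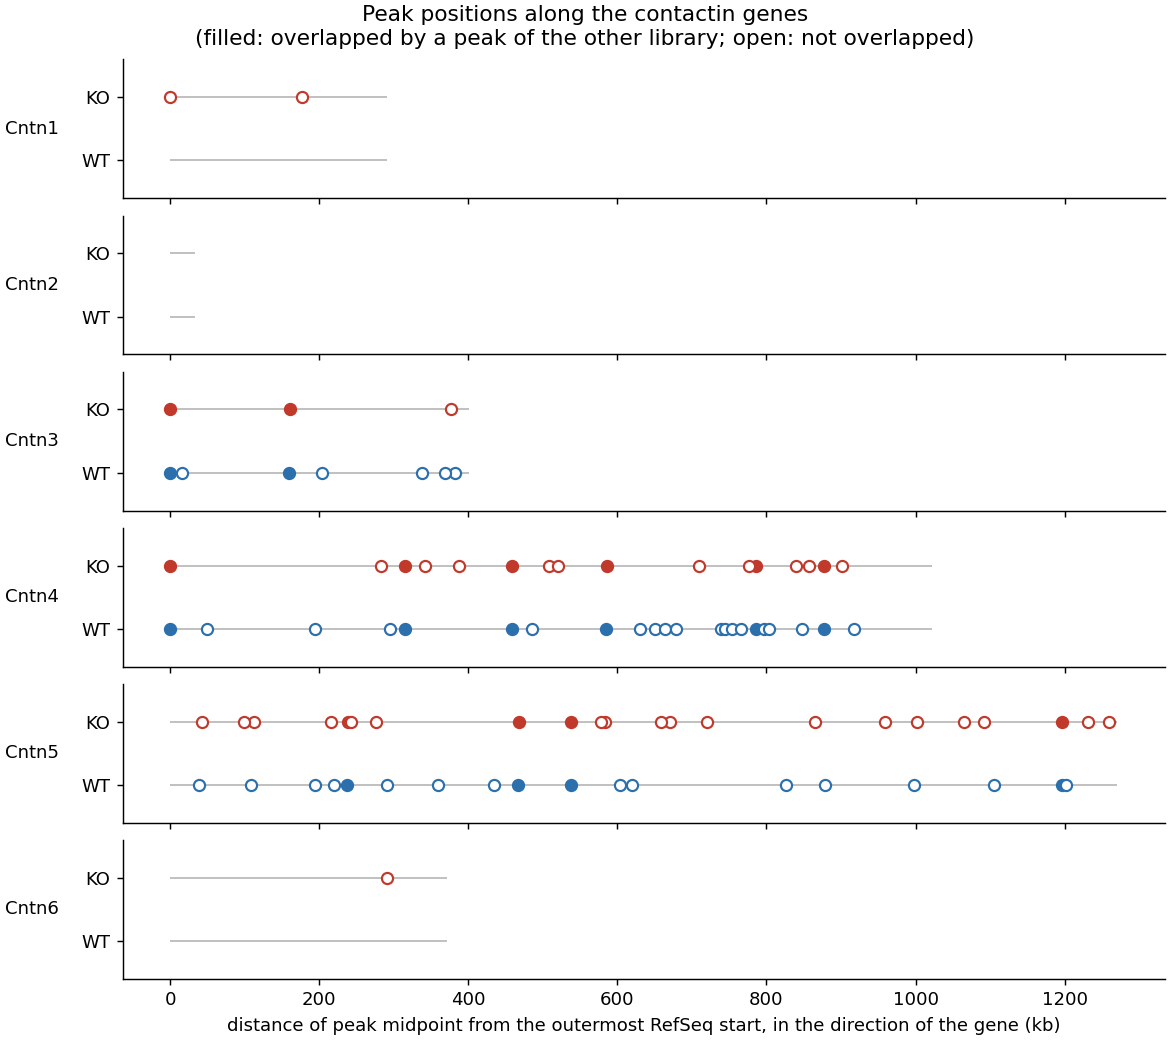
Midpoint of every peak along the 6 genes, in kb from the outermost RefSeq start in the direction of the gene, with KO above WT. Filled points are overlapped by a peak of the other library. Filled points stand at the start of Cntn3 and Cntn4, and Cntn5 has 4 filled points in each row.

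Cntn3, Cntn6 and Cntn4 lie in this order on chromosome 6, with Chl1, an adhesion gene of the L1 family, between Cntn3 and Cntn6. From 1 Mb below Cntn3 to 1 Mb above Cntn4, positions 101163304 to 107700141, there were 101 KO and 121 WT peaks, or 15.5 and 18.5 per Mb, with a ratio of 0.835 (0.634 to 1.10). Chromosome 6 as a whole had 14.6 per Mb in KO and 14.4 in WT. The contactin genes were not the dense part of this neighbourhood. With peaks assigned by midpoint, the 946 kb between Cntn3 and Chl1 held 39 KO and 44 WT peaks, or 41.2 and 46.5 per Mb, and Chl1 itself held 14 and 11, or 62.9 and 49.4 per Mb. The density dropped beyond Chl1. The 760 kb from Chl1 to Cntn6 held 2 KO peaks and 1 WT peak, Cntn6 held 1 and 0, and the 814 kb from Cntn6 to Cntn4 held 3 and 2. It was higher again inside Cntn4, with 14.7 per Mb in KO and 20.5 in WT. In WT the interval of peaks per Mb in the Cntn4 window was 13.4 to 32.4. It lay above the 8.01 per Mb that 0 peaks allow at Cntn6 (3 counts), and above the exact Poisson limit of 9.84. That interval treats peaks as independent, while WT peaks of Cntn4 had up to 6 others within 50 kb, so it may be too narrow. In KO the intervals overlapped, with 8.91 to 25.3 per Mb at Cntn4 and 0.0676 to 14.9 at Cntn6. Of the 66 steps of 100 kb in the neighbourhood, 21 had no peak in either list. Beyond Cntn4, the interleukin receptor gene Il5ra and its neighbours Trnt1 and Crbn had no peak in either library, and Lrrn1 had 0 KO peaks and 1 WT peak. Below Cntn3, Pdzrn3 had 6 KO and 15 WT peaks. The 3 contactins together had 20 KO and 29 WT peaks, a ratio of 0.690 (0.370 to 1.26). Chl1 held a narrow peak of 31.6-fold enrichment in KO and 18.9-fold in WT, against a maximum of 4.43-fold and 3.96-fold over the contactins. The authors kept duplicate tags, which can pile up at one site, and none of the contactin peaks had a pileup of 100 or more. The part of duplicates in the Chl1 peak or in the contactin peaks was not tested.

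**Figure D4:**
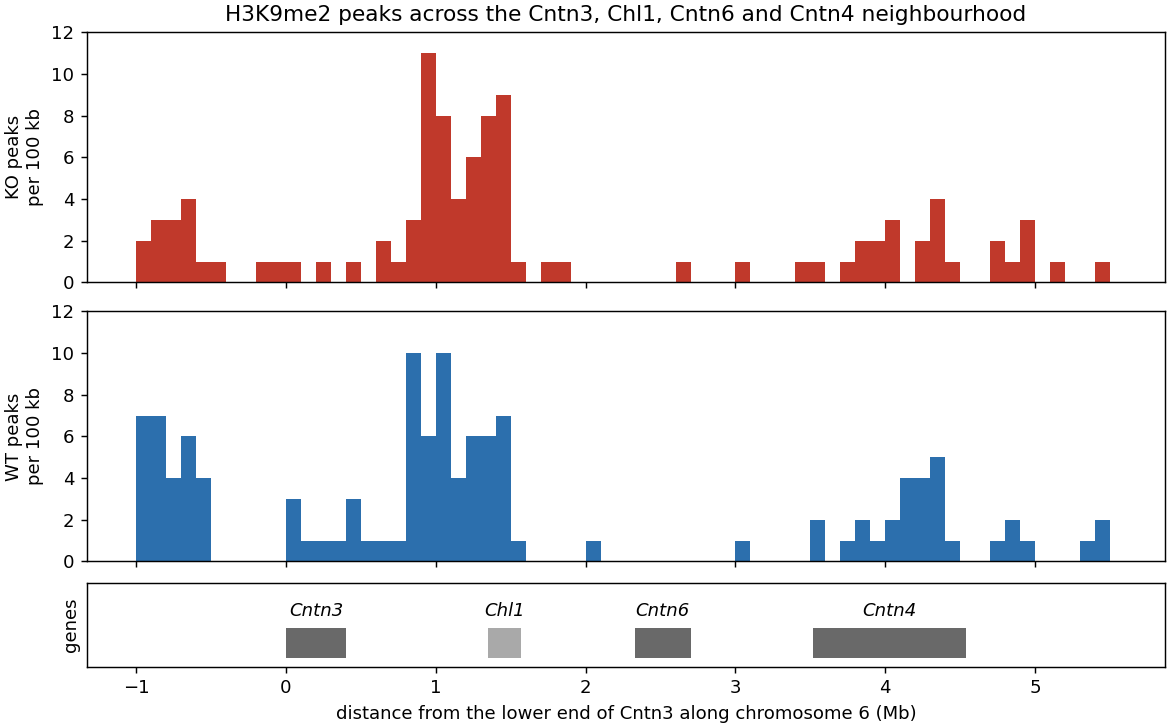
Peaks per 100 kb step along the neighbourhood on chromosome 6, KO above WT, plotted against distance from the lower end of Cntn3 in Mb, with gene bodies below. The tallest columns, 11 peaks in KO and 10 in WT, stand between Cntn3 and Chl1, and Cntn6 stands in a nearly empty stretch.

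The libraries had fewer contactin peaks in common than peaks overall. Of the 44 KO peaks, 12 (27.3%, 15.0 to 42.8%, exact Clopper-Pearson interval) were overlapped by a WT peak by at least 1 bp, against 45.9% of all KO peaks. Of the 47 WT peaks, 12 (25.5%, 13.9 to 40.3%) were overlapped by a KO peak, against 46.4% of all WT peaks. These were 12 sites, of which 6 were in Cntn4, 4 in Cntn5 and 2 in Cntn3. In the gap between Cntn3 and Chl1 the overlapped share was 51.3% of KO and 45.5% of WT peaks, and in Chl1 it was 64.3% and 81.8%. Peaks that have few neighbours are overlapped less often throughout both lists. For peaks with none of the same list within 50 kb of their midpoint, the share was 34.3% in KO and 36.1% in WT, and for those with 5 or more it was 55.4% and 56.0%. Contactin peaks had a median of 1 such neighbour in either library. Weighted to the neighbour numbers of the contactin peaks, the list shares were 38.2% in KO and 40.2% in WT. Both lie inside the intervals of the contactin shares, in WT close to the upper limit. Weighted to the contactins' share of peaks at a q of 1e-05 or lower, the list shares were 46.2% and 44.0%, above those intervals. Within the contactins the overlapped share was 41.7% of the 12 KO peaks (15.2 to 72.3%) and 16.7% of the 12 WT peaks (2.09 to 48.4%) with no neighbour. With 1 neighbour it was 20% of 15 KO peaks (4.33 to 48.1%) and 40% of 15 WT peaks (16.3 to 67.7%). Over the lists, 36.2% of KO and 35.5% of WT peaks with 1 neighbour were overlapped. With 2 to 4 neighbours the contactin share was 23.5% of 17 KO peaks (6.81 to 49.9%) and 18.8% of 16 WT peaks (4.05 to 45.6%). Over the lists it was 42.9% and 43.6% of such peaks. With 5 or more neighbours the contactin share was 25% of 4 WT peaks (0.631 to 80.6%), and no contactin KO peak had that many. These wide intervals resolve no trend with the number of neighbours among the contactins. Neighbour numbers were added after the values were seen, and the weightings only describe the lists. The parts of peak density and of peak strength in the lower sharing were not tested. Over KO and WT peaks together, 8 of 40 were overlapped in Cntn5, 12 of 38 in Cntn4 and 4 of 10 in Cntn3. This pooling counts a shared site in both lists. The median was 43.0% over the 318 long windows with 10 or more peaks. Of those windows, 7.23% had a lower share than Cntn5, 24.5% a lower share than Cntn4 and 38.7% a lower share than Cntn3.

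**Figure D5:**
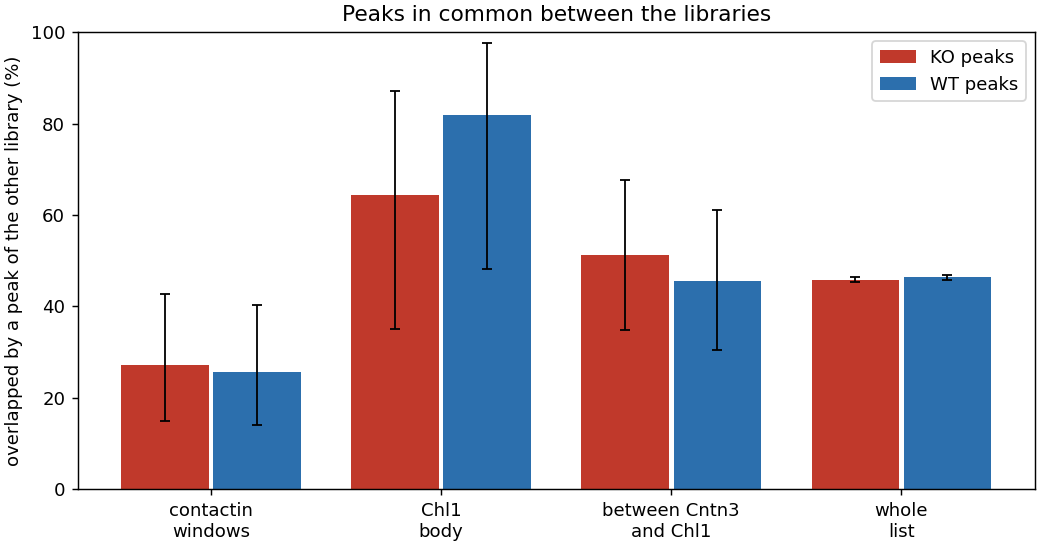
Share of peaks overlapped by at least 1 bp by a peak of the other library, KO peaks left and WT peaks right, with exact 95% Clopper-Pearson intervals. The contactin windows stand at 27.3% and 25.5%, the Chl1 body at 64.3% and 81.8%, the gap between Cntn3 and Chl1 at 51.3% and 45.5%, and the whole lists at 45.9% and 46.4%.

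None of the 32 KO and 35 WT contactin peaks without an overlap had a peak of the other library within 1 kb, and the closest was 2699 bases away. Over the whole lists, 6.23% of such KO peaks and 5.91% of such WT peaks had one within 1 kb. Within 10 kb there was one for 10 of the 32 contactin KO peaks and 8 of the 35 WT peaks, against 48.2% and 48.2% over the lists. The median distance was 20.7 kb in KO and 19.1 kb in WT. The part of local peak density in these distances was not tested. The shared sites included the widest and deepest peak of Cntn4 and the starts of Cntn3 and Cntn4. Shared bases ranged from 67 bp, at 106136058 to 106136124 in Cntn4, to 1536 bp.

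By the caller's measures the contactin peaks were lower in pileup and higher in fold enrichment than the median of their lists. Their median pileup was 15.8 in KO, against 19.1 over the list, and 20.4 in WT, against 25.3. The median fold enrichment was 3.36 in KO, against 3.08 over the list, and 2.93 in WT, against 2.72. The median −log10 q was 3.05 in KO and 3.24 in WT, against 3.01 and 3.27 over the lists. At a q of 1e-05 or lower there were 4 KO peaks and 3 WT peaks, or 9.09% and 6.38%, against 8.10% and 13.0% of the lists. The median width was 323 bp in KO and 469 bp in WT, against 376 and 486 bp over the lists. Exactly the caller's fragment length, the narrowest possible, was the width of 11 KO and 7 WT peaks. These were 25% and 14.9% of the contactin peaks, against 12.9% and 11.7% of the peaks of the lists.

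Genes of nearest window length varied as widely as the contactins. Beside Cntn5, Agbl4 held 14 KO and 14 WT peaks, Il1rapl2 held 18 and 17, and Lingo2 held 45 and 48. Beside Cntn4, Astn2 held 8 and 5, Robo1 held 4 and 6, and Sgcd held 28 and 26. Beside Cntn3, the neurotrophin receptor gene Ntrk3 held 6 KO and 7 WT peaks, Dock4 held 3 and 5, and Dst held none. Beside Cntn6, Ntng1 held 17 and 21, and Mbd5 and Fggy held none. Beside Cntn1, Kctd16 held 11 and 7, Nyap2 held 10 and 14, and Sdk2 held none.

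The partners of contactins also varied from many peaks to none. Of 19 partner and related genes, 13 held a peak in at least 1 library, against 11.8% of all protein-coding windows and 75.7% of the long ones. Together they held 150 KO and 167 WT peaks, or 19.9 and 22.1 per Mb. The median gene had 8.83 per Mb in both KO and WT, against a median of 0 over all protein-coding windows and 11.6 over long ones. The partner windows ran from 14.6 kb at Aplp1 to 2245 kb at Cntnap2, so neither set matches them in length. In the L1 family, Nrcam held 12 KO and 15 WT peaks, and Nfasc and L1cam held none. Of the contactin-associated proteins, Cntnap2, the partner of Cntn2 at myelinated axons, held 69 KO and 90 WT peaks, Cntnap5b held 21 and 18, and Cntnap5a held 5 and 1. Cntnap5c held 3 and 3, Cntnap3 held 2 and 2, Cntnap4 held 0 and 1, and Cntnap1, the partner of Cntn1, held none. Among the receptor phosphatases, Ptprg held 9 and 9 peaks (13.0 per Mb in both), Ptprz1, which binds Cntn1, held 5 and 6, and Ptpra held none. The matrix genes Tnr and Tnc held 7 and 7 and 1 and 2, and App held 2 and 2, while its relatives Aplp1 and Aplp2 held none.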

How the data were processed

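H3K9me2 CUT&Tag libraries of activated B cells, 1 KO and 1 WT, took their groups from the genotype labels. Tools named in the submitters' processing notes, with no roles, are deepTools, HOMER, MACS2, Picard, SAMtools 1.11, Bowtie2 2.4.2 and Trim Galore 0.6.6, with the build mm10. Per the file headers, the authors called broad peaks in each library with MACS2 2.2.7.1 at q and broad cutoffs of 0.01, with all duplicates kept, no control and a background window of 10000 bp. The deposited pileup is a coverage signal of tags extended to the fragment length, unscaled between libraries. Each deposited p-value or q-value is on a −log10 scale, and the deposited fold enrichment is a ratio of pileup to local background. With no control, sites that gather reads in every library are not removed, and very wide domains can be missed.

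Genes and promoters were those of RefSeq GRCm38.p6, without 348 genes of scaffolds, which follow each chromosome's own genes in the table. A peak was counted in a window it overlapped by at least 1 bp. Intervals are exact Poisson, Clopper-Pearson and binomial-based. The code (Python 3.11.15, pandas 2.3.3, SciPy 1.17.1) was tested on simulated data. Named genes were the members, protein-coding neighbours on chromosome 6, the partner list and, per member, the 3 genes of nearest window length, of which those for Cntn2 are not reported here. The members and lists were chosen with earlier results of these data known. Distances to gene starts, neighbour numbers within 50 kb and the surroundings of each gene were added after the values were seen.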

Additional observations from a re-analysis of the deposited data

How the results depend on the processing

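The values over the contactin windows kept within counting error, or within 1.5 times for counts, densities and covered shares, under peaks merged within 5 kb, KO peaks widened by 103 bp, high pileups left out, flanks of 0 or 10 kb, peak midpoints and other overlap rules. At a stricter q the counts, densities and covered shares did not. At a q of 1e-05 or lower, the windows held 4 KO and 3 WT peaks, or 1.17 and 0.879 per Mb, with covered shares of 0.0730% and 0.0688%, and the chromosome 6 neighbourhood held 8 KO and 17 WT peaks. That limit removes peaks by construction, and q-values depend on the fragment length. Under the other alternatives the contactin windows held 43 to 45 KO and 46 to 47 WT peaks. The KO to WT ratio ran from 0.935 to 1.33, the highest at the stricter q, which rests on 7 peaks. The overlapped share ran from 15.9% to 27.9% of KO peaks and from 14.9% to 33.3% of WT peaks, lowest with a reciprocal overlap of at least 50%. No share of the whole lists is given under that rule, so the lowest values cannot be set against the list shares above. The 33.3% was at the stricter q and rests on 3 WT peaks. No paired analysis was possible because each genotype had 1 library. The KO library had 1.03 times as many tags as the WT library, and at 0 to 22 peaks a gene the intervals of the single-gene ratios at Cntn3, Cntn4 and Cntn5 all included 1.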
